A study of Arabidopsis thaliana and Arabidopsis lyrata subsp. lyrata and Arabidopsis halleri subsp. gemmifera with 10 samples.

Results

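Transcript signals of 3 anthocyanin genes, DFR, UF3GT and AT5MAT, were followed across mature leaves of Arabidopsis species and their hybrids. The genes were taken by their probe sets, 249215_at for DFR (AT5G42800), 248185_at for UF3GT (AT5G54060) and 256924_at for AT5MAT (AT3G29590), which are 3 of 22746 probe sets once control probe sets are left out. They were chosen from their signals on all 10 arrays, with both A. thaliana arrays far apart, so their levels and differences are a description and carry no test. The groups were the A. thaliana-A. halleri hybrid, the A. thaliana-A. lyrata hybrid, A. halleri ssp. gemmifera, A. lyrata ssp. lyrata and the Col accession of A. thaliana. Plants of all groups grew at 22 C under 16 h of light and 8 h of dark, and leaves were taken before flowering. Each of the 5 groups had 2 biological replicates with 1 array each. The direction of the crosses, the ploidy and age of the plants and the number of plants behind an RNA sample are not stated in the labels.

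Anthocyanins are red to purple flavonoid pigments that leaf cells store in the vacuole, and in A. thaliana leaves they are known to build up under stresses such as cold, strong light and nutrient shortage. Their synthesis branches off from flavonol synthesis where dihydroflavonol reductase, the product of DFR, reduces dihydroflavonols to the precursors of the coloured anthocyanidins. Sugars and acyl groups are then attached, and in A. thaliana complexes of MYB, bHLH and WD40 proteins switch on the late genes together. UF3GT, also listed as UGT79B1, encodes a glycosyltransferase that extends the sugar chain of anthocyanins with xylose. AT5MAT encodes a malonyltransferase that adds malonate to a glucose of the anthocyanin.

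Signals are in arbitrary units after every array was rescaled to a mean of 500 with 2% trimmed at each end, and 104, the 40th percentile of all signals, served as the filter on weak probe sets. Before rescaling the trimmed mean was 500 on 5 arrays (A. thaliana replicate 1, A. halleri and its hybrid) and between 24.3 and 136 on the other 5 (A. thaliana replicate 2, A. lyrata and its hybrid). With 2 arrays a group, the number of arrays limits precision. Of 16 markers listed for leaf, flower, seed and root, 1 could be matched to a probe set here. It was RCA, the Rubisco activase of photosynthetic leaf tissue, with signals from 26882 to 73049 over the 10 arrays, so the leaf label could be checked on this marker only.

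DFR, the entry enzyme of the anthocyanin branch, had signals of 152 and 122 in the hybrid with A. halleri, 52.7 and 405 in the hybrid with A. lyrata, 182 and 191 in A. halleri, 278 and 180 in A. lyrata, and 12.9 and 13384 in A. thaliana, replicate 1 before replicate 2 in each group. A. thaliana replicate 2 was thus the highest array and A. thaliana replicate 1 the lowest, with all 8 arrays of the other groups between them. The ratio of these signals was 1036, but the lower one is weak and near the offset of 9.24 that was added before taking logs. With the offset the difference was 604-fold. DFR stood at percentile 99.6 of the probe sets on A. thaliana replicate 2 and at percentile 16.9 on replicate 1, while on the other arrays it stood between percentiles 28.2 and 69.1. Leaf RNA was measured in bulk, so a larger number of cells with the transcript and more transcript per cell cannot be told apart.

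UF3GT, the glycosyltransferase, had signals of 189 and 41.9 in the hybrid with A. halleri, 55.3 and 414 in the hybrid with A. lyrata, 44.7 and 58.5 in A. halleri, 124 and 69.7 in A. lyrata, and 21.0 and 5444 in A. thaliana. Again both extremes were A. thaliana arrays, with the other 8 between them. A. thaliana replicate 2 exceeded the next highest array, replicate 2 of the A. thaliana-A. lyrata hybrid, 13.1-fold, and for DFR the same pair of arrays differed 33.1-fold. The ratio of the A. thaliana arrays was 259.

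AT5MAT, the malonyltransferase, had signals of 59.7 and 51.6 in the hybrid with A. halleri, 61.6 and 101 in the hybrid with A. lyrata, 4.70 and 8.92 in A. halleri, 175 and 14.5 in A. lyrata, and 33.7 and 547 in A. thaliana. A. thaliana replicate 2 was again highest, 3.12-fold above A. lyrata replicate 1. A. thaliana replicate 1 was not the lowest array here, as both A. halleri arrays and A. lyrata replicate 2 lay below it. Both A. halleri arrays were lower than every other array. Sequence differences between A. halleri and the probes, which were made for A. thaliana, cannot be told apart from a lower transcript level.

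**Figure D1:**
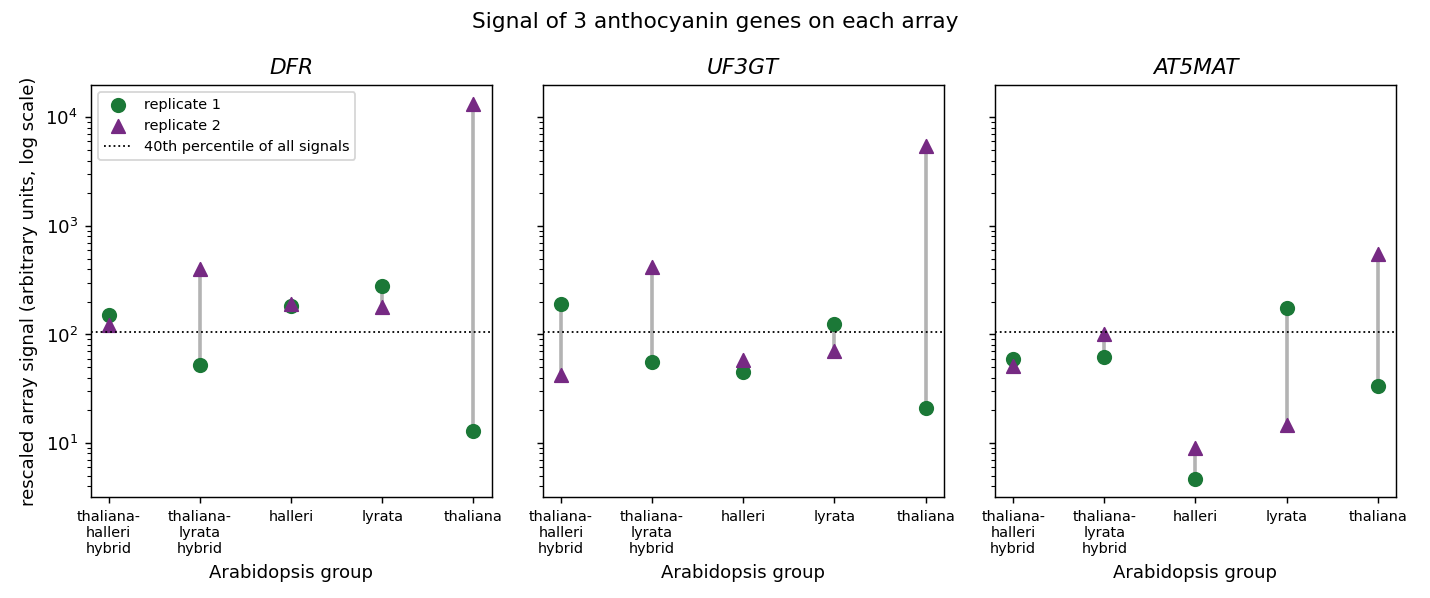
Rescaled array signal (arbitrary units, log axis) of DFR, UF3GT and AT5MAT in the 5 groups, with a circle for replicate 1, a triangle for replicate 2, a grey line joining both and a dotted line at the 40th percentile of all signals (104). A. thaliana replicate 2 is the highest array in each panel, at 13384, 5444 and 547, and A. thaliana replicate 1 is at 12.9, 21.0 and 33.7.

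All 3 genes passed the filter, but through different groups. The group means meant here are of log2 signals, not the means of signals given further below. DFR reached the filter signal in the mean of all 5 groups and on 8 of 10 arrays. UF3GT reached it on 4 arrays and in the means of 2 groups, A. thaliana and its hybrid with A. lyrata. AT5MAT reached it in A. thaliana alone and on 2 arrays, so 8 of its values are weak signals whose order is uncertain.

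DFR, UF3GT and AT5MAT were chosen with the A. thaliana arrays far apart. The rank of their gap among the 16656 probe sets tested therefore describes that choice and is no test. AT5MAT was among those probe sets through A. thaliana alone. On the log2(signal + 9.24) scale, replicate 2 minus replicate 1 was 9.24 for DFR, and no other probe set was as far apart in either direction. The difference was 7.49 for UF3GT, with 8 probe sets at least as far apart, itself included, and 3.70 for AT5MAT, with 126. Across all probe sets tested the median difference was 0.07, and 495 were over 4-fold higher in replicate 2 and 517 over 4-fold higher in replicate 1. Together these were 6.08% of the probe sets, against between 1.34% and 4.66% in the other 4 groups. The direction of the gap did not depend on scaling. The ratio of replicate 2 to replicate 1 was 283 for DFR in the deposited values, 1331 on the scale of the hybridization spike-ins and 1129 after quantile normalization. For UF3GT it was 70.6, 332 and 191, and for AT5MAT 4.43, 20.9 and 8.71, in the same order of scales.

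A. thaliana was the only group with arrays in both classes of the deposited scale, so class and replicate cannot be told apart there. The other 4 arrays of the class of replicate 2 had DFR signals of 52.7 to 405, and the other 4 of the class of replicate 1 had 122 to 191. Among the genes listed for cold and drought, light stress and phosphate starvation, 3 of 14 had a probe set, all from the cold and drought list. The cold-response gene COR15A, whose product protects chloroplasts during freezing, went the other way from DFR, with 12117 in A. thaliana replicate 1 and 2374 in replicate 2. COR15B was at 1552 in replicate 1 and 644 in replicate 2, and COR47, a dehydrin gene, at 3484 in replicate 1 and 8663 in replicate 2. These cold genes thus differed in both directions between the arrays, and their part in the anthocyanin genes' gap was not tested.

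Some gaps between hybrid replicates were also wide and others were ordinary. For the cross with A. lyrata, replicate 2 was above replicate 1 for each gene, with a ratio of 7.68 for DFR, 7.49 for UF3GT and 1.64 for AT5MAT. In that hybrid 0.486% of tested probe sets were at least as far apart as DFR, 0.546% as UF3GT and 28.0% as AT5MAT. In the A. thaliana-A. halleri hybrid it was replicate 1 that was higher, 4.53-fold for UF3GT, 1.25-fold for DFR and 1.16-fold for AT5MAT, with 1.47%, 47.9% and 65.6% of probe sets at least as far apart. The A. halleri arrays had replicate ratios of 1.05 for DFR, 1.31 for UF3GT and 1.90 for the very weak signal of AT5MAT. In A. lyrata, replicate 1 was higher for each gene, 1.55-fold for DFR, 1.78-fold for UF3GT and 12.1-fold for AT5MAT.

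By group mean, DFR was at 137 ± 21.3 in the hybrid with A. halleri, 229 ± 249 in the hybrid with A. lyrata, 186 ± 6.08 in A. halleri, 229 ± 69.5 in A. lyrata and 6698 ± 9455 in A. thaliana (SD, n = 2 each). Of the groups next to each other in the order of these means, only A. halleri and the hybrid below it did not overlap. UF3GT averaged 116 ± 104 in the hybrid with A. halleri, 235 ± 254 in the hybrid with A. lyrata, 51.6 ± 9.76 in A. halleri, 96.8 ± 38.3 in A. lyrata and 2733 ± 3835 in A. thaliana. Here A. halleri and A. lyrata did not overlap, although the A. thaliana-A. halleri hybrid, which lies next to A. lyrata in the order of means, overlapped with both. AT5MAT averaged 55.7 ± 5.73 in the hybrid with A. halleri, 81.2 ± 27.8 in the hybrid with A. lyrata, 6.81 ± 2.98 in A. halleri, 95.0 ± 114 in A. lyrata and 291 ± 363 in A. thaliana. The hybrid with A. halleri did not overlap with either of its neighbours in the order of AT5MAT means, the hybrid with A. lyrata above and A. halleri below. The share of all probe sets without overlap in such pairs was not counted. For all 3 genes the overlaps therefore only describe the 2 arrays of each group. For each gene the A. thaliana mean was the highest, and in each case its SD was larger than the mean itself.

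The sign of most differences from A. thaliana turned with the A. thaliana array used. For DFR, A. lyrata minus A. thaliana was -1.23 on the log2(signal + 9.24) scale with both A. thaliana arrays, 3.39 with replicate 1 alone and -5.84 with replicate 2 alone. A. halleri minus A. thaliana was -1.48, 3.14 and -6.10 in that order. For UF3GT the values were -1.99, 1.76 and -5.73 for A. lyrata, and -2.75, 1.0 and -6.49 for A. halleri. For AT5MAT they were -1.22, 0.63 and -3.07 for A. lyrata, while those for A. halleri, -3.28, -1.43 and -5.13, kept their sign. The AT5MAT difference of A. lyrata also turned, to 0.26, without A. lyrata replicate 2. Both sets of differences share the A. thaliana arrays. Between the species other than A. thaliana, A. halleri minus A. lyrata was -0.25 for DFR, -0.76 for UF3GT and -2.06 for AT5MAT, and the DFR sign turned on the spike-in scale (0.26) and without A. lyrata replicate 1. The UF3GT value ranged from -1.14 without A. lyrata replicate 2 to -0.27 on the spike-in scale, and the AT5MAT value from -3.54 without A. lyrata replicate 2 to -0.58 without replicate 1.

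The hybrids' place between their parents turned in the same way. With both A. thaliana arrays, the mean of the parents' DFR signals was 3442 for the A. halleri cross and 3464 for the A. lyrata cross, and all 4 hybrid arrays lay below. With A. thaliana replicate 1 as the only A. thaliana parent, the parental mean was 99.7 for the A. halleri cross, with both hybrid arrays above it, and 121 for the A. lyrata cross, with 1 hybrid array above and 1 below. UF3GT and AT5MAT gave the same counts, with parental means of 1392 and 149 for the A. halleri cross when both A. thaliana arrays were used and 36.3 and 20.2 with replicate 1 alone. The A. thaliana-A. halleri hybrid minus the A. thaliana-A. lyrata hybrid was -0.14 for DFR, -0.71 for UF3GT and -0.45 for AT5MAT, and the sign for DFR and AT5MAT turned on the spike-in scale. For DFR and UF3GT it also turned when replicate 2 of either hybrid was left out.

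The 3 genes were compared over the arrays. Over all 10 arrays Pearson's r was 0.93 and Spearman's rho 0.78 between DFR and UF3GT, 0.79 and 0.65 between UF3GT and AT5MAT, and 0.65 and 0.41 between DFR and AT5MAT. The arrays share groups and scaling, and the genes were chosen for this pattern, so these are descriptions. Without the 2 arrays farthest from the median of the first gene named, r was 0.64 for DFR with UF3GT and 0.16 for DFR with AT5MAT, both times without the A. thaliana arrays, and 0.44 for UF3GT with AT5MAT. Over the 8 arrays without A. thaliana, r was 0.59 and rho 0.57 for UF3GT with AT5MAT, close to the r of 0.64 and rho of 0.57 for DFR with UF3GT. For DFR with AT5MAT, leaving out A. thaliana replicate 2 alone already gave an r of 0.14 and a rho of 0.18, so their relation rests on that array.

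Other genes of the pathway were taken from 7 lists of 53 genes that cover phenylpropanoid supply, the flavonoid core, the anthocyanidin branch, decoration, transport and regulators. Of these, 8 had a probe set of their own in the annotation used here and 7 passed the filter. No gene of phenylpropanoid supply, transport or the activating regulators was among them, so those steps were not analysed here. BAN, the anthocyanidin reductase that feeds proanthocyanidin synthesis in the seed coat, did not pass, with signals of 3.41 to 39.6.

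Among the pathway genes, AT4G14090 came nearest to the 3 genes. It stands in the decoration list, and the tables used here give it no name. Its signals were 153 and 11.9 in the hybrid with A. halleri, 90.3 and 493 in the hybrid with A. lyrata, 30.6 and 37.2 in A. halleri, 164 and 145 in A. lyrata, and 112 and 4899 in A. thaliana. The replicate that was higher for UF3GT was also the higher one for AT4G14090 in all 5 groups. In A. halleri and A. lyrata the AT4G14090 gap was small, with 65.7% and 75.3% of tested probe sets at least as far apart. CHIL, a chalcone isomerase-like protein that helps channel flux into flavonoid synthesis, was also higher in A. thaliana replicate 2, with 1427 against 244 in replicate 1, but its other replicate ratios were at most 1.63.

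Replicates of the other pathway genes lay closer in A. thaliana. UGT78D2, which glucosylates flavonols and anthocyanidins, was at 4932 in A. thaliana replicate 2 and 2710 in replicate 1, a ratio of 1.82 and its widest in any group. For UGT78D1, which adds rhamnose to flavonols, the A. thaliana ratio was 1.26 and the widest 2.05, in the A. thaliana-A. halleri hybrid. For AT1G06000 of the decoration list it was 1.17 in A. thaliana and at most 1.42, in A. halleri. For TRY, a small MYB protein that represses trichome formation, it was 1.42 in A. thaliana and at most 1.51, in the A. thaliana-A. halleri hybrid. UGT78D3, which adds arabinose to flavonols, differed 3.44-fold between the A. thaliana arrays, at signals of 11.2 and 3.26. Its widest ratio was 5.83, in A. halleri. The genes that differed over 4-fold between the A. thaliana arrays were thus DFR, UF3GT, AT5MAT, AT4G14090 and CHIL.

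**Figure D2:**
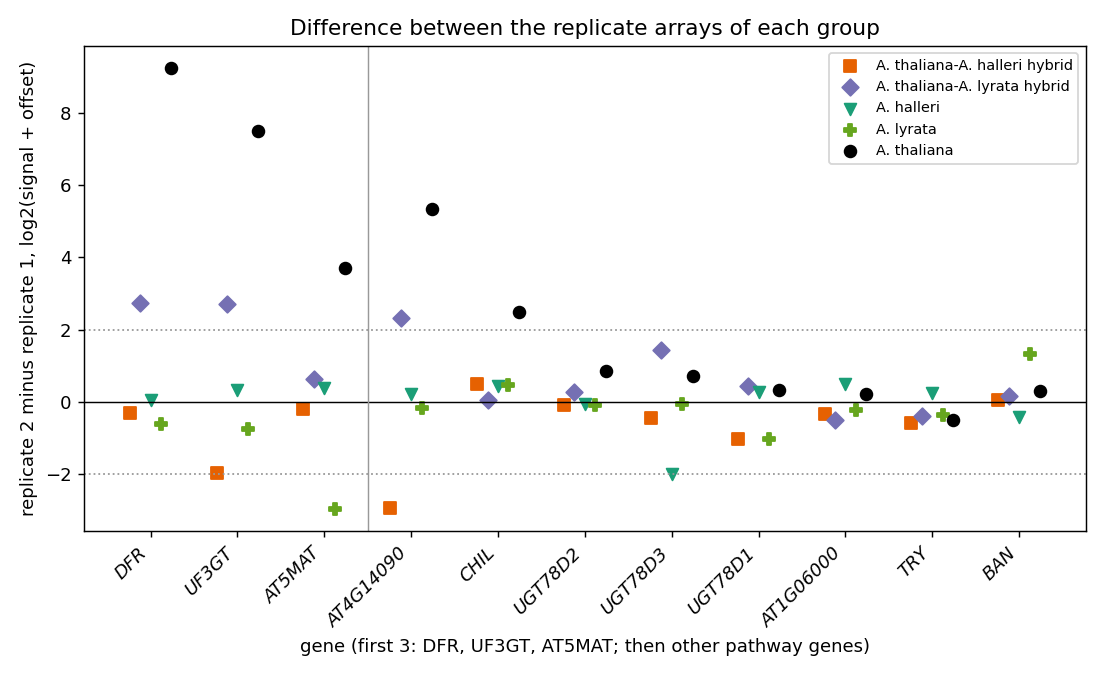
Replicate 2 minus replicate 1 of each group on the log2(signal + 9.24) scale for DFR, UF3GT, AT5MAT and the 8 pathway genes with a probe set, 1 symbol per group, with dotted lines at differences of 4-fold. The A. thaliana points of DFR, UF3GT and AT5MAT, at 9.24, 7.49 and 3.70, and that of AT4G14090, at 5.34, lie above all others in the plot.

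Between species the pathway genes were tested in a limma fit over all probe sets, with Benjamini-Hochberg adjusted p below 0.05 as the threshold. The probes were made for A. thaliana, so sequence differences from them cannot be told apart from a transcript difference in any comparison of species or hybrids. That holds for DFR, UF3GT and AT5MAT as well. In A. lyrata against A. thaliana, 3 of the 7 were higher and 2 lower, where 43% of all probe sets were called, 25.8% higher and 17.2% lower, and the median log2 difference was -1.33 for the 7 genes and 0.31 for all probe sets. UGT78D2 was 7.15-fold lower (log2 difference -2.84 ± 0.31 SE, limma adjusted p = 0.000222), with 520 and 488 in A. lyrata against 2710 and 4932 in A. thaliana. Of the 3 called higher, UGT78D3 passed the filter only through A. lyrata, the group where it is high, so its call is no support and no fold is given. Its signals were 336 and 322 in A. lyrata against 3.26 and 11.2, weak signals near the offset, in A. thaliana. TRY was 3.38-fold lower (limma adjusted p = 0.00275). UGT78D1 was 3.13-fold higher (limma adjusted p = 0.0116) and AT1G06000 1.76-fold higher (limma adjusted p = 0.0485). On the spike-in scale, which put the median of all probe sets at -1.57, 1 of the 7 was higher and 5 lower. The higher one was UGT78D3, whose call is no support. There CHIL (-3.13, limma adjusted p = 0.00340) and AT4G14090 (-4.01, limma adjusted p = 0.0454) were called lower, UGT78D1 was not called at -0.21 and AT1G06000 was called lower at -1.03. The call of UGT78D1 was also lost without A. lyrata replicate 1 (adjusted p = 0.0897), and that of AT1G06000 without any of 9 arrays, all but A. thaliana replicate 2 (highest adjusted p = 0.181), without the filter (0.0532) and when the scale class was a block (0.115). AT4G14090 did not pass (-2.24 ± 1.52, limma adjusted p = 0.253). Without A. thaliana replicate 1 its difference was -4.91, and that of CHIL was -2.58 (-1.33 ± 0.67, limma adjusted p = 0.130 in the fit of all arrays). Against A. thaliana replicate 1, the mean log2 level of AT4G14090 was higher in A. lyrata, at 7.35 against 6.92. For CHIL the levels were close, at 7.91 in A. lyrata against 7.98 in A. thaliana replicate 1. Both lower values in A. lyrata thus depended on A. thaliana replicate 2. With the class as a block, the differences were the same as without A. thaliana replicate 1 (-4.91 for AT4G14090, -2.58 for CHIL and 0.70 for AT1G06000). Only A. thaliana had arrays in both classes, so in this comparison the block is no separate result.

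In A. halleri against A. thaliana, 0 of the 7 were higher and 2 lower, where 39.7% of all probe sets were called, 23.5% higher and 16.2% lower, and 3 of the 7 had an unadjusted p below 0.05. The median was -0.25 for the 7 genes and 0.32 for all probe sets. CHIL was 23.0-fold lower (-4.52 ± 0.67, limma adjusted p = 0.00105), with 13.2 and 21.4 in A. halleri against 244 and 1427 in A. thaliana. UGT78D2 was 8.45-fold lower (-3.08 ± 0.31, limma adjusted p = 0.000176), with 435 and 415 in A. halleri, below both A. thaliana arrays. Leaving out any 1 of the 10 arrays kept both calls, but the CHIL difference was -3.27 without A. thaliana replicate 2 and -5.78 without replicate 1, and its A. halleri signals were weak, at percentiles 10.7 and 14.9. AT4G14090 was just short of the threshold (-4.16 ± 1.52, limma adjusted p = 0.0529), and its difference was -6.83 without A. thaliana replicate 1. Against A. thaliana replicate 1 the mean log2 level of AT4G14090 was also lower in A. halleri, at 5.43 against 6.92. On the spike-in scale, which put the median of all probe sets at -1.02, 6 of the 7 were lower.

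In A. halleri against A. lyrata, 1 of the 7 was higher and 3 lower, where 15.5% of all probe sets were called, 8.13% higher and 7.38% lower, with a median of -1.77 for the 7 genes and -0.03 for all. CHIL was 9.18-fold lower in A. halleri (17.3 ± 5.84 against 234 ± 54.8 in A. lyrata, SD, n = 2 each, limma adjusted p = 0.0119). UGT78D1 was 3.42-fold lower (limma adjusted p = 0.0197) and TRY 2.84-fold higher (limma adjusted p = 0.0141). The other gene called lower, UGT78D3, again passed the filter only through A. lyrata, so its call is no support, with 86.1 and 14.8 in A. halleri against 336 and 322 in A. lyrata. It was also lost with an offset of 1 (adjusted p = 0.0932). The calls of UGT78D1 and UGT78D3 were lost on the spike-in scale (adjusted p = 0.0889 and 0.105). All 4 calls were lost without A. halleri replicate 2 (adjusted p of 0.0513 to 0.227), and 3 of them without A. halleri replicate 1 (0.0557 to 0.112). Without A. lyrata replicate 1 those of UGT78D1 and UGT78D3 were lost (0.124 and 0.128), and without A. lyrata replicate 2 those of CHIL, TRY and UGT78D3 (0.0751 to 0.135). A. halleri and A. lyrata also lie in different classes of the deposited scale, and with the class as a block none of the 4 calls held (adjusted p of 0.209 to 0.496). The class term came only from the gap between the A. thaliana arrays, the 1 group in both classes, so the block does not test these calls. That of UGT78D3 was further lost without either A. thaliana-A. halleri hybrid array (0.0610 and 0.0593).

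**Figure D3:**
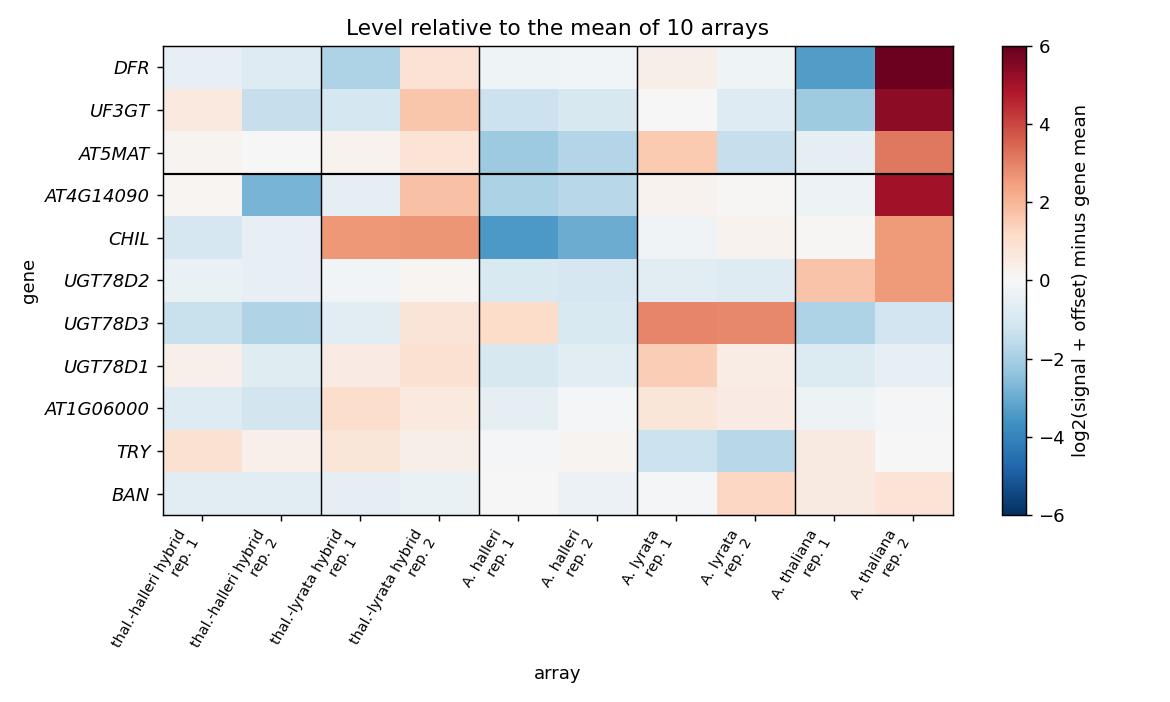
Level of DFR, UF3GT, AT5MAT (above the line) and the 8 other pathway genes (below it) on each of the 10 arrays, as log2(signal + 9.24) minus the gene's mean over the arrays, from blue (lower) to red (higher). DFR, UF3GT and AT4G14090 are darkest red on A. thaliana replicate 2, CHIL is red on both A. thaliana-A. lyrata hybrid arrays and blue on both A. halleri arrays, and UGT78D3 is red on both A. lyrata arrays.

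The hybrids were set against the mean of their parents. For the A. thaliana-A. lyrata hybrid 0 of the 7 pathway genes were higher and 1 lower, where 5.39% of all probe sets were called, 1.67% higher and 3.72% lower, and 4 of the 7 had an unadjusted p below 0.05. In the A. thaliana-A. halleri hybrid 0 were higher and 1 lower, where 1.09% of all probe sets were called, 0.396% higher and 0.69% lower, and 2 of the 7 had an unadjusted p below 0.05. The gene was UGT78D2 in both. In the A. halleri cross it was 3.30-fold lower (-1.72 ± 0.30, limma adjusted p = 0.0359), with hybrid signals of 630 and 593 against a parental mean of 2123. In the A. lyrata cross it was 2.52-fold lower (-1.33 ± 0.29, limma adjusted p = 0.0331), with hybrid signals of 747 and 899 against a parental mean of 2162. Both parental means given are of signals, while the folds were taken from back-transformed log2 levels. The call in the A. halleri cross was lost without any of 8 arrays, all but those of A. thaliana (highest adjusted p = 0.282), and the call in the A. lyrata cross without any of 9 arrays, all but A. thaliana replicate 1 (highest adjusted p = 0.255). With any 1 of the 10 arrays left out, the difference stayed between -2.11 and -1.35 in the A. halleri cross and between -1.72 and -0.96 in the A. lyrata cross. Both comparisons share the A. thaliana arrays.

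Between the hybrids, 0 of the 7 pathway genes were higher in the A. thaliana-A. halleri hybrid and 2 lower, where 2.65% of all probe sets were called, 1.93% higher and 0.72% lower, and the median was -1.64 for the 7 genes and 0.02 for all. CHIL was at 112 and 162 in the hybrid with A. halleri against 1434 and 1500 in the hybrid with A. lyrata, 10.2-fold lower (-3.36 ± 0.67, limma adjusted p = 0.0290). AT1G06000 was at 599 and 473 in the hybrid with A. halleri against 2171 and 1548 in the hybrid with A. lyrata, 3.40-fold lower (-1.77 ± 0.30, limma adjusted p = 0.0146). The call of CHIL was lost without any of 8 arrays, all but those of A. thaliana (highest adjusted p = 0.183), while its difference stayed between -3.61 and -3.10. That of AT1G06000 was lost on the spike-in scale (-1.19, adjusted p = 0.0613), without either A. thaliana-A. halleri hybrid array and without replicate 1 of the other hybrid (0.0691 to 0.144). The hybrids lie in different scale classes, and with the class as a block neither call held (adjusted p = 0.425 for CHIL and 0.0739 for AT1G06000). Here too the class term came only from the A. thaliana arrays, so the block does not test these calls. For the difference between the hybrids' deviations from mid-parent, 0 of the 7 genes were called in limma's fit and 2 had an unadjusted p below 0.05, where 1.04% of all probe sets were called, 0.738% higher and 0.3% lower.

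The genes most like the 3 anthocyanin genes were sought among 9253 tested probe sets with 1 gene, by Pearson's r over the 10 arrays with the mean of the 3 genes' standardized log2 levels. The median r was -0.05, and 0.648% of these probe sets exceeded 0.8. The 10 highest were AT4G14230 (r = 0.95), AT3G28690 (0.94), AT4G16000 (0.93), AT3G62590 (0.92), CPUORF47 (0.90), AT1G22160 (0.90), AT4G34950 (0.90), AT1G44770 (0.89), AT2G37240 (0.89) and AT1G73750 (0.89). CPUORF47, a conserved upstream open reading frame that encodes a peptide, is the only one with a symbol of its own. Each was highest on A. thaliana replicate 2, where AT1G22160 was at 5170 against 220 on replicate 1 and AT4G14230 at 970 against 118. The 3 anthocyanin genes were highest there too, so this largely follows from the choice. For single genes the 3 nearest were AT4G39140 (0.97), AT4G14230 (0.95) and AT3G62590 (0.95) for DFR, AT4G14230 (0.96), AT3G28690 (0.96) and AT1G22160 (0.94) for UF3GT, and AT2G17350 (0.92), AT2G04690 (0.92) and AT5G62620 (0.90) for AT5MAT.

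For the 10 genes the likeness was lower without the array where the 3 genes were highest. They were picked for the highest r over all 10 arrays, so a fall with arrays left out largely follows from that choice. Without A. thaliana replicate 2 the r of the 10 genes ranged from 0.57 for AT1G44770 to 0.86 for AT4G14230, and over the 8 arrays of the other groups from 0.52 for AT4G34950 to 0.83 for CPUORF47. Of the pathway genes AT4G14090 had the highest r, 0.89 over 10 arrays and 0.79 over the 8. UGT78D2 had 0.59 over 10 arrays, -0.29 without A. thaliana replicate 2, 0.94 without replicate 1 and 0.53 over the 8, while UGT78D1 had 0.21 over 10 arrays and 0.73 over the 8. CHIL had 0.56, AT1G06000 0.14, UGT78D3 -0.01 and TRY -0.05 over 10 arrays. Without A. thaliana replicate 2 the r was higher for UGT78D1 (0.81), UGT78D3 (0.41) and AT1G06000 (0.33). It was lower for AT4G14090 (0.62), CHIL (0.38) and TRY (-0.15), as for UGT78D2.

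**Figure D4:**
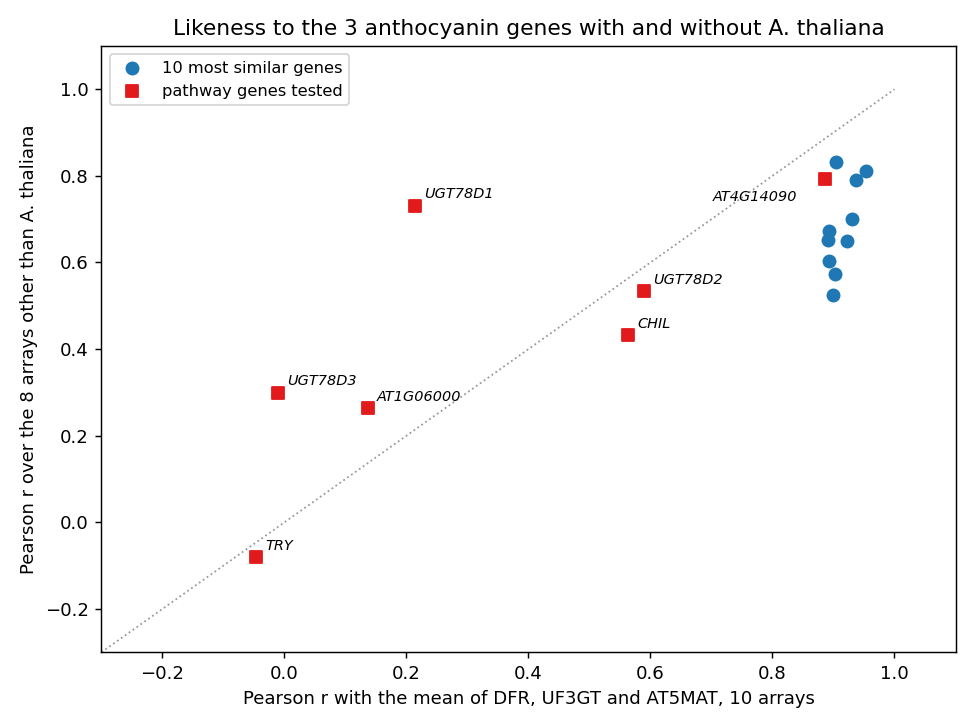
Pearson's r of each gene with the mean of DFR, UF3GT and AT5MAT over all 10 arrays (horizontal) and over the 8 arrays other than A. thaliana (vertical), for the 10 most similar genes (circles) and the 7 pathway genes tested (squares), with a dotted line of equal values. All 10 circles, picked for the highest horizontal values, lie below the line, and UGT78D1 lies farthest above it, at 0.21 and 0.73.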

How the data were processed

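Leaf RNA, 500 ng of total RNA per sample, was labelled and hybridized to Affymetrix arrays. The deposited values are intensity values, 1 linear signal per probe set, which the authors obtained from GCOS and MAS5, per the submitters' processing notes (versions not given in the sources used here). Groups came from the sample titles. The files do not name an annotation, and probe sets were named through a partial annotation table of the array (13513 with 1 gene, 503 with several, 8730 unnamed here) and a RefSeq table (assembly TAIR10.1) that served only to name genes. No coordinates were used.

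Arrays were rescaled to a 2% trimmed mean of 500, since 5 of 10 were not on that scale. A total of 64 control probe sets were left out, and probe sets were tested if a group's mean log2 signal reached the 40th percentile (16656 of 22746). R 4.3.3 and limma 3.58.1 (lmFit, eBayes with trend) were applied to log2(signal + 9.24), where 9.24 is the 10th percentile of signals, with all 5 groups in the fit (5 residual df) and Benjamini-Hochberg adjustment over all probe sets. Mid-parent differences were taken from the average of both parents' fitted levels, back-transformed from log2, with a delta-method SE. The procedure was tested on simulated data.

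DFR, UF3GT and AT5MAT, the gene lists and the alternatives were chosen with earlier results of these data known. Named were the 3 genes, any measured pathway gene with, per comparison, the called ones (at most 6), the 10 genes most like the mean of the 3 and 3 for each, and condition genes over 4-fold apart between the A. thaliana arrays. COR15B, COR47 and the leaf marker RCA were named after their values were seen. Alternatives were spike-in scaling (18 probe sets), quantile normalization, an offset of 1, no filter, the replicate number and the deposited scale class as blocks, and each array left out.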

Additional observations from a re-analysis of the deposited data

Results flagged for a closer look

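In 2 pathway genes both arrays of one hybrid lay below the mean of the parents and both of the other lay above it. Both A. thaliana arrays entered that mean. For CHIL the A. thaliana-A. halleri hybrid was below and the A. thaliana-A. lyrata hybrid above, and the difference between the hybrids' deviations was -2.93 on the log2 scale. It did not pass in limma's fit (adjusted p = 0.0971), where 1.04% of all probe sets were called. The difference was -3.16 without A. thaliana replicate 1 and -2.53 without replicate 2. Without replicate 2 the A. lyrata cross alone deviated by 2.58 from mid-parent, so the A. halleri hybrid was then not below its own. For CHIL the opposite directions thus depended on A. thaliana replicate 2. For AT1G06000 the directions were the same, the difference was -1.24 and it did not pass (limma adjusted p = 0.160). DFR, UF3GT and AT5MAT showed no such split.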

How the results depend on the processing

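The count of the 7 pathway genes called was within 1.5 times its value under an offset of 1, without the filter and with the replicate block in all 6 comparisons. It moved with spike-in scaling to 6 in A. halleri against A. thaliana, 2 in A. halleri against A. lyrata and 1 between the hybrids. Quantile normalization moved that of the A. lyrata cross against mid-parent to 0. The block for scale class took its class term from the A. thaliana arrays only, so no count with the class, here or below, tests a class effect in other groups. With the scale class as a block the count was 0 in A. halleri against A. lyrata, 0 between the hybrids and 2 for the A. lyrata cross against mid-parent. With 1 array left out it ranged from 3 to 6 in A. lyrata against A. thaliana, 2 to 3 in A. halleri against A. thaliana, 0 to 5 in A. halleri against A. lyrata, 0 to 2 and 0 to 3 in the A. lyrata and A. halleri crosses against mid-parent, and 0 to 2 between the hybrids. UGT78D1 (-0.21) and AT1G06000 (-1.03) turned in A. lyrata against A. thaliana with spike-in scaling. The cause of these moves was not tested.

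Replicates shared a number only. The correlation of their deviations between groups was -0.13 to 0.26, above 0.1 in 1 of 10 pairs. With the replicate block AT1G06000 in A. lyrata against A. thaliana (adjusted p = 0.0620) and UGT78D3 in A. halleri against A. lyrata (0.0574) lost their calls. Over all probe sets the mid-parent count of the A. halleri cross was 181, and 117 with the block, 120 with an offset of 1 and 544 with the class. The count between the hybrids was 441, and 1178 with spike-ins and 1484 with the class, and that of the A. lyrata cross 897, and 2728 with the class. The count for the difference between the crosses was 173, and 393 with spike-ins and 684 with the class. Left-out arrays took the first 3 counts to between 6 and 1235, 76 and 934, and 36 and 2748, and the last to between 16 and 448. They took A. halleri against A. thaliana, 6617, to between 3676 (without A. halleri replicate 2) and 6661, and A. halleri against A. lyrata, 2583, to between 1117 (without A. halleri replicate 1) and 3838 (without A. thaliana replicate 1). Spike-in scaling gave 423 higher and 10057 lower in A. lyrata against A. thaliana (4293 and 2868 as reported), 718 and 7316 in A. halleri against A. thaliana (3922 and 2695), 2741 and 488 in A. halleri against A. lyrata (1354 and 1229), 175 and 75 in the A. halleri cross against mid-parent (66 and 115), and 1105 and 73 between the hybrids (321 and 120). Of 228 alternative values for differences of DFR, UF3GT and AT5MAT, 19 changed sign. These hold no AT5MAT value without A. thaliana replicate 2, since AT5MAT did not pass the filter there. With replicate 1 as the only A. thaliana array, AT5MAT turned for A. lyrata (0.63) and against mid-parent in the A. lyrata cross (0.69) and A. halleri cross (1.14). For A. halleri it did not turn (-1.43).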

Other observations

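A further probe set is listed for 2 genes, both of the decoration list, and so cannot be assigned to either. It was picked after its values were seen. Its signals were 38.7 and 7.28 in the hybrid with A. halleri, 8.68 and 147 in the hybrid with A. lyrata, 10.3 and 8.04 in A. halleri, 73.6 and 96.2 in A. lyrata, and 32.5 and 4949 in A. thaliana. The higher replicate was replicate 2 in A. thaliana (152-fold) and in its hybrid with A. lyrata (17.0-fold), and replicate 1 in its hybrid with A. halleri (5.31-fold), as for UF3GT. In A. halleri (1.29-fold higher in replicate 1) and A. lyrata (1.31-fold higher in replicate 2) the direction was opposite to that of UF3GT.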
